A study of Mus musculus with 21 samples.

Results

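Binding sites of the glucocorticoid receptor (GR), a hormone-activated transcription factor, were described at 5 iron and heme genes of mouse liver: Alas1, Hmox1, Hccs, Hamp and Scara5. Overlapping GR peaks of 18 libraries were merged into 7398 sites, and a site was kept when its centre lay within 50 kb of a protein-coding gene and that nearest gene was one of the 5. This left 8 sites, 4 of them at Alas1 and 1 at each of the other 4 genes, while 4846 genes in all had a site by the same rule. The genes were picked with their detection across the libraries in view, so their peaks and tag counts are given as a description and carry no test. The member site farthest from its gene lay 15554 bp away, and a limit of 100 kb in place of 50 kb gave the same 8 sites.

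The libraries came from snap-frozen whole livers of C57BL/6J mice, immunoprecipitated with the rabbit GR antibody H300 and sequenced (ChIP-seq). Mice injected with dexamethasone (DEX, a synthetic glucocorticoid, 10 mg/kg into the abdomen) were kept at 21% oxygen (normoxia) or at 7% oxygen for 6 h or 24 h, and mice under the same 3 oxygen conditions received phosphate-buffered saline (PBS). All were sampled 2 h after the injection, with 3 libraries per group named as biological replicates, and PBS mice still have their own corticosterone. No genotype other than the strain is given, and neither age nor sex is given in the labels.

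Heme is built in mitochondria from glycine and succinyl-CoA by a pathway whose rate-limiting step is catalysed by the ALAS enzymes, and the liver consumes much of its heme in cytochrome P450 enzymes. Heme oxygenase opens the heme ring and sets the iron free, which is stored in ferritin or leaves the cell through ferroportin. The liver also sets iron supply for the whole body by secreting hepcidin, a peptide hormone that binds ferroportin and has it degraded.

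The promoter of Hamp, which encodes hepcidin, is the only one of the 5 promoters to lie wholly within a merged GR site, so its sequence is shown. No single library's peak covered all of it, and the low-coordinate end of the site comes from normoxia PBS replicate 1 alone. The stretch is the 250 bases before the gene's start in RefSeq, minus strand, chr7:30944030-30944279 of GRCm38.p6, the assembly behind mm10. Capitals mark GGCGCC, the core of the element through which bone morphogenetic protein (BMP) signals act on hepcidin genes, and TTCTTGGAA, the STAT3 element through which interleukin-6 acts on them.
Hamp promoter: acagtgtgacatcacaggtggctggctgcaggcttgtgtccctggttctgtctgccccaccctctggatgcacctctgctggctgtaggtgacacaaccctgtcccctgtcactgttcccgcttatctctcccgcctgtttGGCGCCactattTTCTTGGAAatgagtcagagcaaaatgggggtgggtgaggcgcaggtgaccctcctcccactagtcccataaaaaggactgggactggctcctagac
The first base of GGCGCC stood at -109 and that of TTCTTGGAA at -97 from the start. Both motifs were added to the search after the sequence had been seen. Among 32851 RefSeq promoter windows of 300 bases, GGCGCC, which reads the same on both strands, was in 11.9%, and TTCTTGGAA or its reverse complement TTCCAAGAA was in 0.417%. The GR palindrome ACANNNTGT, in 6.85% of the windows, had no match here. The single hexamer of that palindrome, searched as TGTTCT or AGAACA on either strand and present in 19% of the windows, occurred once in the Hamp window, at 32 bases after the start. That position lies in the peak of normoxia PBS replicate 1 alone, since every other Hamp peak began at chr7:30944059 or later. The 30 bases around the match lie at chr7:30943981-30944010, minus strand, with the match in capitals.
Hamp hexamer: agactgcacagcAGAACAgaaggcatgatg
The core of hypoxia response elements, ACGTG or CACGT, in 19.6% of the windows, had no match in the Hamp window. These matches describe letters in a window and were not measured as bound positions.

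Depth was 5772670 to 13181686 tags in the DEX libraries and 8667179 to 43645787 tags in the PBS libraries. Tag counts below are the authors' normalized tags, scaled to 10000000 tags per library and available only where a peak was called. A peak needed 50 tags before scaling, which corresponds to 37.9 to 86.6 normalized tags across the DEX libraries and 11.5 to 57.7 across the PBS libraries. The conversion is approximate: normoxia PBS replicate 1, at 11.5, had a peak called at Ireb2 with 11 normalized tags. Normoxia PBS replicate 1 stood apart, with 43645787 tags, 3915 peaks of 280 bp and 3232 sites found in no other library, so a peak known from it alone is named as such. Beyond that library, sites lay nearest to 6 of 8 hepatocyte marker genes, 1 of 8 Kupffer cell genes (Ptprc), 1 of 8 stellate cell genes (Ecm1), 2 of 6 endothelial genes and 0 of 6 erythroid genes. In whole liver, fewer cells of a type and less binding per cell cannot be told apart.

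Alas1 encodes the ALAS enzyme of liver and most other tissues, and it carried the strongest GR sites of the 5 genes. The gene lies on the minus strand of mm10 at chr9:106233455-106247954. A distal intragenic site, chr9:106235486-106235730, was centred 12346 bp inside from the high-coordinate end of that span. A proximal intragenic site, chr9:106237504-106237712, was centred 10346 bp inside, 2000 bp from the distal one. Each had a peak in 9 of 9 DEX libraries. With PBS the distal site had a peak in 4 of 9 libraries and the proximal site in 2 of 9.

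At the distal Alas1 site, normoxia DEX libraries had 208.6, 288.3 and 328.2 normalized tags, 6 h hypoxia DEX libraries 225.5, 339.5 and 203.6, and 24 h hypoxia DEX libraries 141, 282.5 and 310.1. With PBS, no normoxia library had a peak, 6 h hypoxia replicates 2 and 3 had 210.7 and 122.8 normalized tags, and 24 h hypoxia replicates 1 and 2 had 89.4 and 54.6. The distal site had a peak after PBS in 4 of 6 hypoxia libraries and 0 of 3 normoxia libraries. The highest PBS value lay within the DEX range. The PBS lists with this peak held 751 and 622 peaks at 6 h and 260 and 153 at 24 h. Those of normoxia PBS held 3915, 145 and 343. The share of all sites with these PBS counts was not computed, and the cause was not tested. The mean at the distal site was 258.6 ± 67.0 normalized tags with DEX (SD, n = 9) and 119.4 ± 66.9 with PBS (SD, n = 4, the libraries with a peak). Normoxia PBS replicate 1, in which 11.5 normalized tags would have met the minimum of 50 tags, had no peak at either intragenic Alas1 site. A peak there also needed 4-fold enrichment over input and surroundings. At 1 other site, the Slc39a14 site called in all 18 libraries, that library had 43.5 normalized tags, against 100.4 and 92.1 in normoxia PBS replicates 2 and 3. Why it had no peak at these Alas1 sites was not tested.

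At the proximal Alas1 site, normoxia DEX libraries had 106.2, 162.3 and 237.6 normalized tags, 6 h hypoxia DEX libraries 133.7, 169.8 and 109.4, and 24 h hypoxia DEX libraries 81.2, 136.7 and 166.9. With PBS, only 6 h hypoxia replicates 2 and 3 had a peak, at 157.7 and 45.3 normalized tags. One of these PBS values lay inside the DEX range and the other below it. The DEX mean was 144.9 ± 46.1 normalized tags (SD, n = 9).

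The distal Alas1 site was the higher of the pair in 11 of the 11 libraries that had both, by a ratio of 1.34 to 2.71 with a median of 1.86. Of the 935 sites with a peak in all 9 DEX libraries, 82.0% had a lower DEX mean than the distal site and 52.0% a lower one than the proximal site, the median being 139.8 normalized tags. In the authors' fold over input, the distal site reached 67.5 to 373-fold in DEX libraries and 26.6 to 232-fold in the PBS libraries with a peak. The share of tags near the peak centre (the authors' focus ratio) was 0.843 to 0.91 at the distal site and 0.914 to 0.975 at the proximal site with DEX.

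**Figure D1:**
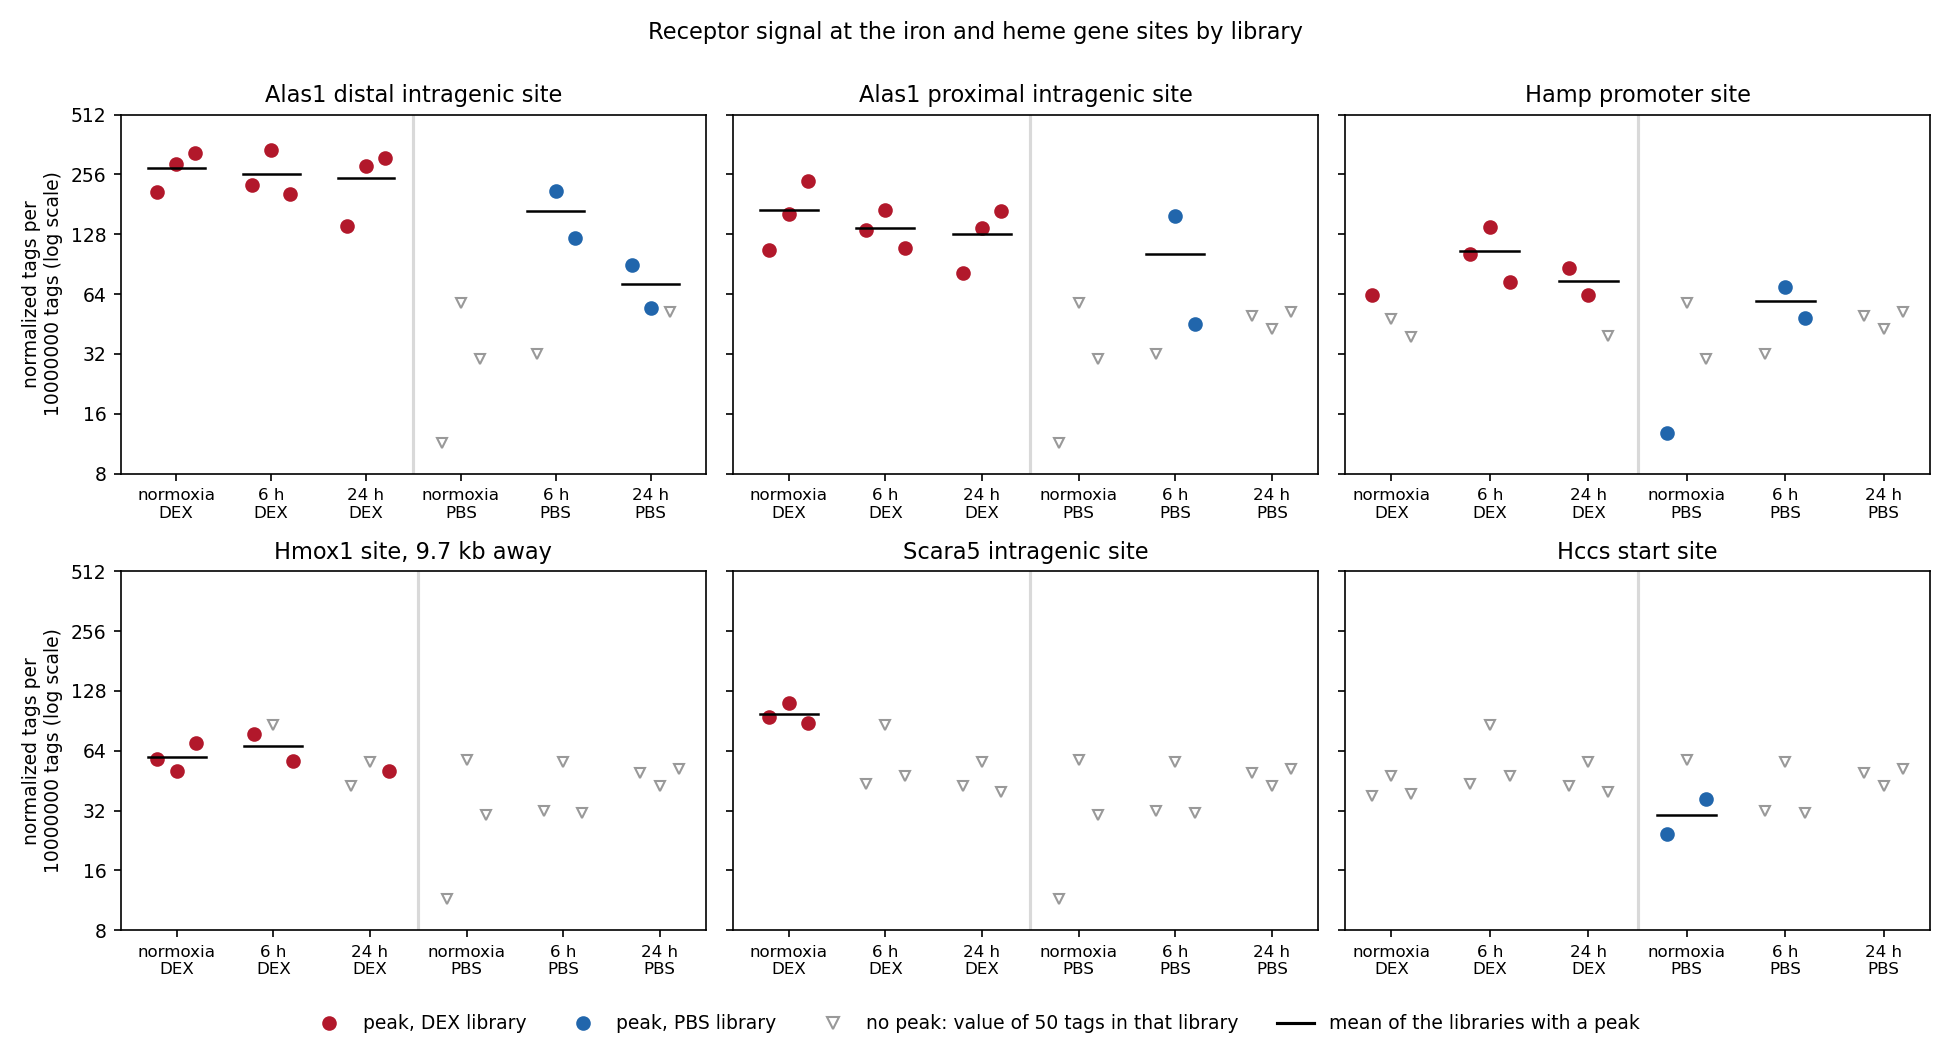
Normalized tags (vertical axis, log scale) at the member sites, 1 point per library with a peak, DEX groups left of PBS groups; lines are means over libraries with a peak, and open triangles mark the value of 50 tags in libraries without one. The distal Alas1 site lies at 141 to 339.5 with DEX and at 54.6 to 210.7 in the 4 PBS libraries with a peak, and the Scara5 site has points in normoxia DEX alone.

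Hypoxia moved the tags of both Alas1 sites by less than the spread between libraries. The distal site averaged 275.0 ± 60.9 normalized tags in normoxia with DEX, 256.2 ± 73.0 at 6 h and 244.5 ± 90.7 at 24 h (SD, n = 3 each). On log2 tags centred on each library's median, the hypoxia minus normoxia difference with DEX was -0.02 ± 0.17 (SE), made up of -0.10 ± 0.20 at 6 h and 0.06 ± 0.20 at 24 h. The proximal site averaged 168.7 ± 65.9, 137.6 ± 30.4 and 128.3 ± 43.5 normalized tags in the same order (SD, n = 3 each), a centred log2 difference of -0.16 ± 0.22. Leaving out normoxia DEX replicate 3 turned both differences to 0.17, and leaving out normoxia DEX replicate 1 gave -0.25 at the distal and -0.50 at the proximal site. Without centring the differences were -0.17 ± 0.28 and -0.31 ± 0.28, since that choice moved the median of all 935 sites to -0.10, against 0.05 with centring.

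Across the 9 DEX libraries the centred log2 tags of the pair of Alas1 sites had a Pearson r of 0.91. Of 821 other sites compared, those most like the distal site lay in Capn9 (r = 0.97), which encodes a calpain protease, in Ctnna2 (r = 0.93), which encodes an alpha-catenin, and in Gpat4 (r = 0.89), which encodes a glycerol-3-phosphate acyltransferase. Those most like the proximal site lay in Zmiz1 (r = 0.94), B4galnt1 (r = 0.93) and Serpinf2 (r = 0.92), the gene of alpha-2-antiplasmin. Each r is over 9 libraries that share an antibody and differ in depth, was picked as the highest of many, and is a description. Another 103 sites had peaks in exactly the same libraries as the proximal site, and 0 in the same ones as the distal site.

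The other Alas1 sites were each known from 1 library. A site at the start of the gene, chr9:106247610-106247890, was called in normoxia PBS replicate 1 alone, at 15.1 normalized tags and 10.3-fold over input. It overlapped 210 bases of the RefSeq promoter window, which is drawn around a start at chr9:106247730, inside the gene's span and not at the span end from which the distances above were taken. The window held 44 CpG against a median of 7 over all windows and none of the GR or hypoxia motifs. A site 15554 bp beyond the same end of the gene, chr9:106263413-106263603, was called in normoxia DEX replicate 1 alone, at 98.6 normalized tags. It lay 265 bp from a site with a peak in 8 DEX libraries and 0 PBS libraries that was counted to the neighbour Poc1a, which encodes a centriole protein.

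Poc1a lies 15935 bp from this last site and had the highest site of the region. This one, chr9:106266951-106267231, averaged 613 ± 132 normalized tags with DEX (SD, n = 9) and 85.4 ± 59.7 with PBS (SD, n = 8). A second, chr9:106265444-106265655, averaged 118 ± 34.7 with DEX (SD, n = 9) and was at 40.9 in 1 PBS library. Tlr9, the gene of a receptor for unmethylated DNA, lies 8732 bp from the distal Alas1 site. Which of these genes a site acts on was not measured.

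**Figure D2:**
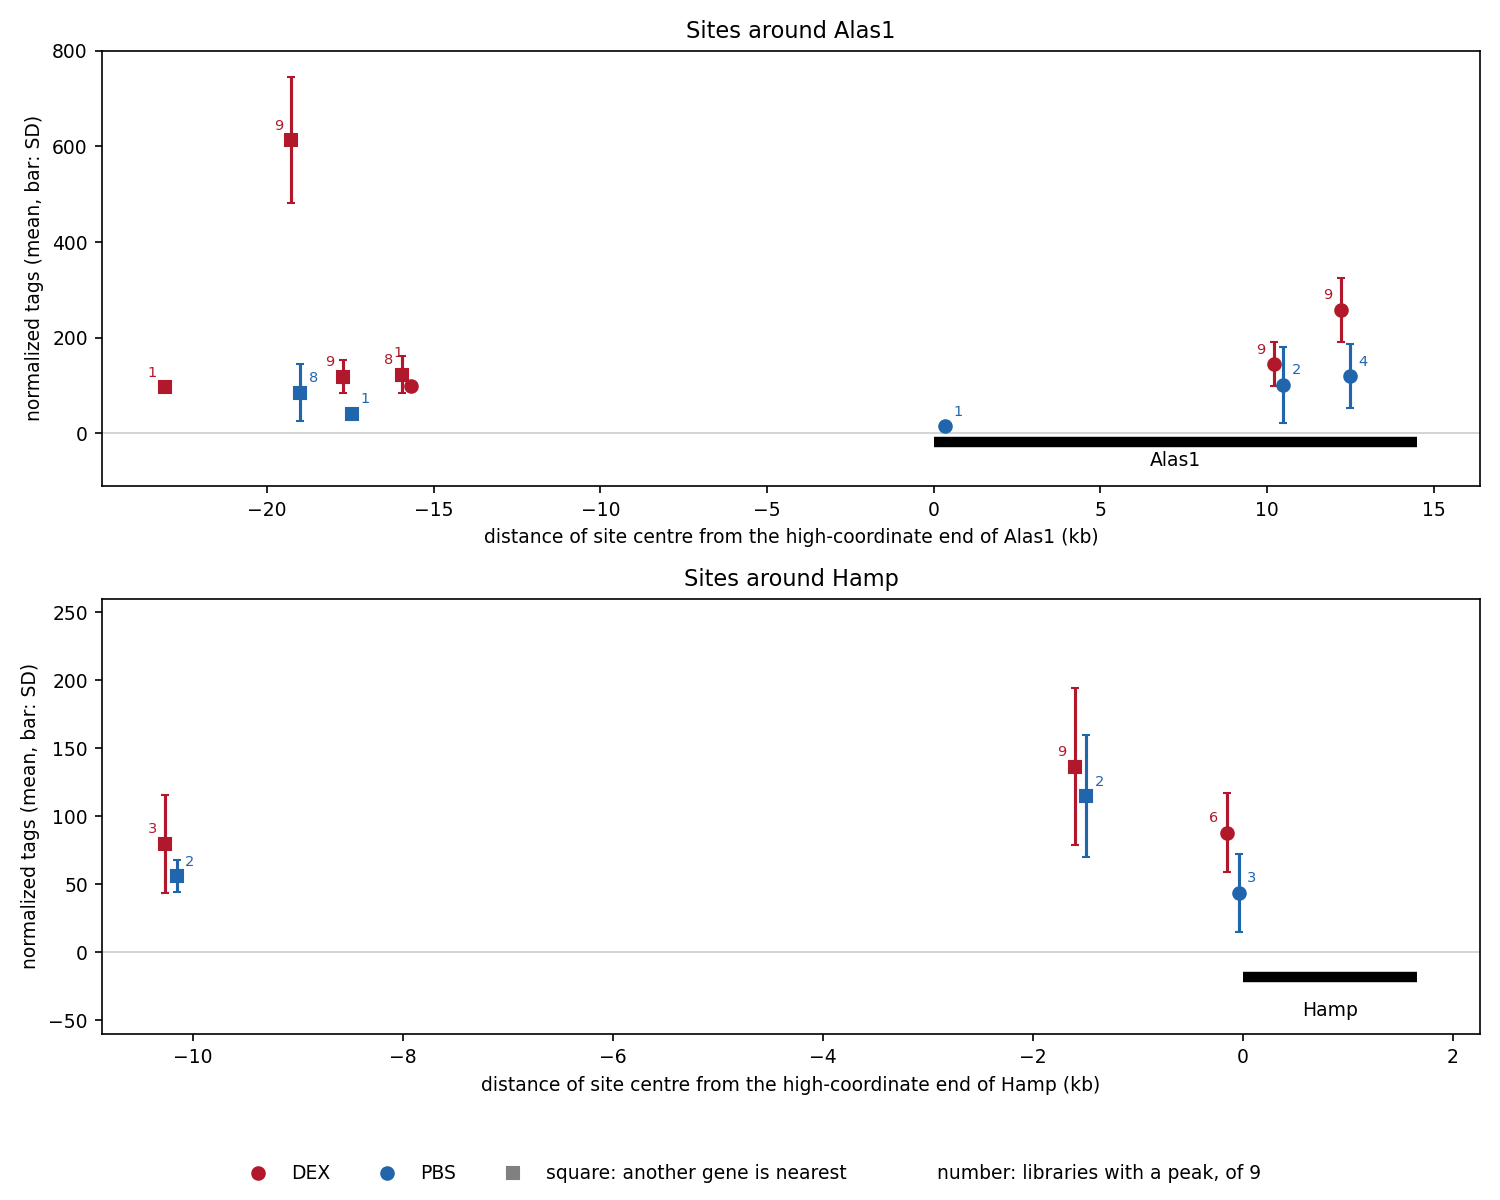
Sites around Alas1 (top) and Hamp (bottom) by distance from the high-coordinate end of the gene in kb, with mean normalized tags and SD, DEX beside PBS at a small offset, and the number of libraries with a peak out of 9. Circles are sites counted to the named gene and squares sites nearest to another gene. The 613-tag Poc1a site stands above the 2 intragenic Alas1 sites, and the Hamp site lies beside a Usf2 site.

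Hmox1 encodes heme oxygenase 1, the inducible enzyme that breaks heme down and a known target of hypoxia-inducible factors. The gene lies at chr8:75093618-75100593, and its site, chr8:75083775-75084005, was centred 9728 bp on the low-coordinate side. A peak was present in 3 of 3 normoxia DEX libraries, 2 of 3 at 6 h and 1 of 3 at 24 h of hypoxia with DEX, and in 0 of 9 PBS libraries. Tags were 58.4, 50.6 and 70.4 in normoxia with DEX, 77.8 and 57.1 in 6 h hypoxia replicates 1 and 3, and 50.6 in 24 h hypoxia replicate 3. These values, with a mean of 60.8 ± 11.0 (SD, n = 6), were close to the minimum for a call in some libraries. Without a peak, 6 h hypoxia DEX replicate 2 needed 86.6 normalized tags for one, above every value measured at the Hmox1 site. Also without a peak, 24 h hypoxia DEX replicate 2 needed 56.5, and replicate 1 needed 42.7, below every value at the site. The PBS libraries, all without a peak, needed 11.5 to 57.7. At a common minimum of 86.6 normalized tags for every library, the Hmox1 site had 0 peaks.

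The Hmox1 site was enriched 42.8 to 126-fold over input in the 6 libraries with a peak. Of 2938 sites with a peak in 2 or more DEX libraries, 180 (6.13%) had the same counts, 3 of 6 with hypoxia and 3 of 3 with normoxia, and 58 others had peaks in exactly the same libraries. The next nearest gene, Tom1, lay 13769 bp from the Hmox1 site.

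Hccs encodes the holocytochrome c synthase, which attaches heme to cytochrome c in mitochondria. The gene is on the minus strand at chrX:169311530-169320374, and its site, chrX:169320108-169320388, covers the start. It had a peak in 2 of 3 normoxia PBS libraries, at 24.5 normalized tags in replicate 1 and 36.4 in replicate 3, in 0 of 9 DEX libraries and in 0 of 6 hypoxia PBS libraries. Both values lay below the 37.9 normalized tags that the most permissive DEX library needed for a call, so peaks of this height could not be called with DEX. Within its own list the Hccs peak exceeded 95.0% of the peaks in replicate 1 and 9.33% in replicate 3. The RefSeq promoter window of Hccs, 66 bases of which lie in the site, held 40 CpG and 1 CACGT match, at -145. The predicted gene Gm15246 lies 131 bp from the site.

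Hamp, the hepcidin gene, lies on the minus strand at chr7:30942368-30944029, with its site, chr7:30943949-30944300, over the promoter shown above. With DEX a peak was present in 1 of 3 normoxia libraries, 3 of 3 at 6 h and 2 of 3 at 24 h of hypoxia. With PBS it was present in 1 of 3 normoxia libraries, 2 of 3 at 6 h and 0 of 3 at 24 h. The Hamp site was the one member site called more often in hypoxia than in normoxia with DEX, 5 of 6 against 1 of 3.

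Tags at the Hamp site were 63 in normoxia DEX replicate 1, then 102.3, 138.6 and 73.3 in the 6 h hypoxia DEX libraries, and 86.3 and 63.3 in 24 h hypoxia DEX replicates 1 and 2. With PBS they were 12.8 in normoxia replicate 1 and 69.8 and 48.4 in 6 h hypoxia replicates 2 and 3. The 6 h hypoxia DEX libraries were all above the normoxia DEX value, and the lowest DEX values overlapped the highest PBS value. Over libraries with a peak, the mean was 87.8 ± 29.0 with DEX (SD, n = 6) and 43.7 ± 28.8 with PBS (SD, n = 3). The PBS value of 12.8, at 4.35-fold over input, lay below the minimum for a call in every other library. In the 6 h hypoxia PBS libraries with a peak the mean was 59.1 ± 15.1 (SD, n = 2).

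A share of libraries higher by at least 0.5 in hypoxia, as at Hamp, was found at 25 of 2938 sites (0.851%), and 6 sites had exactly its counts. The 2 normoxia DEX libraries without a Hamp peak needed 47.7 and 38.7 normalized tags for a call, less than any DEX value at the site. At the common minimum of 86.6 normalized tags the Hamp site kept 2 DEX peaks and 0 PBS peaks. Peak centres lay 124 to 175 bp before the gene's start in 8 libraries, and 60 bp before it in normoxia PBS replicate 1, whose peaks are wider.

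The neighbour of Hamp is Usf2, 1124 bp away, which encodes a basic helix-loop-helix transcription factor. A Usf2 site centred 1450 bp from the Hamp site, chr7:30945461-30945688, was called in 9 DEX and 2 PBS libraries, at 137 ± 57.9 (SD, n = 9) and 115 ± 44.8 normalized tags (SD, n = 2). Hamp2, the second mouse hepcidin gene, lies 19943 bp from the Hamp site.

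Scara5 encodes a scavenger receptor that takes up ferritin. The gene lies at chr14:65666403-65764826, and its site, chr14:65759581-65759810, was inside the gene, 5131 bp from the high-coordinate end. Tags were 94.1, 111.7 and 88.2 in the normoxia DEX libraries, a mean of 98.0 ± 12.2 (SD, n = 3). The Scara5 site had a peak in 0 of 6 hypoxia DEX libraries and 0 of 9 PBS libraries. The hypoxia DEX libraries needed 39.5 to 86.6 normalized tags for a call, below the lowest normoxia DEX value of 88.2, and the 3 peaks passed the common minimum of 86.6. A call also needed 4-fold enrichment over input and surroundings. The DEX lists held 3659, 2235 and 2516 peaks in normoxia and 1235 to 2287 in hypoxia, and the cause of the absence was not tested. Of the 2938 sites, 102 (3.47%) had 0 of 6 against 3 of 3, and 93 others had peaks in exactly the same libraries as the Scara5 site.

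**Figure D3:**
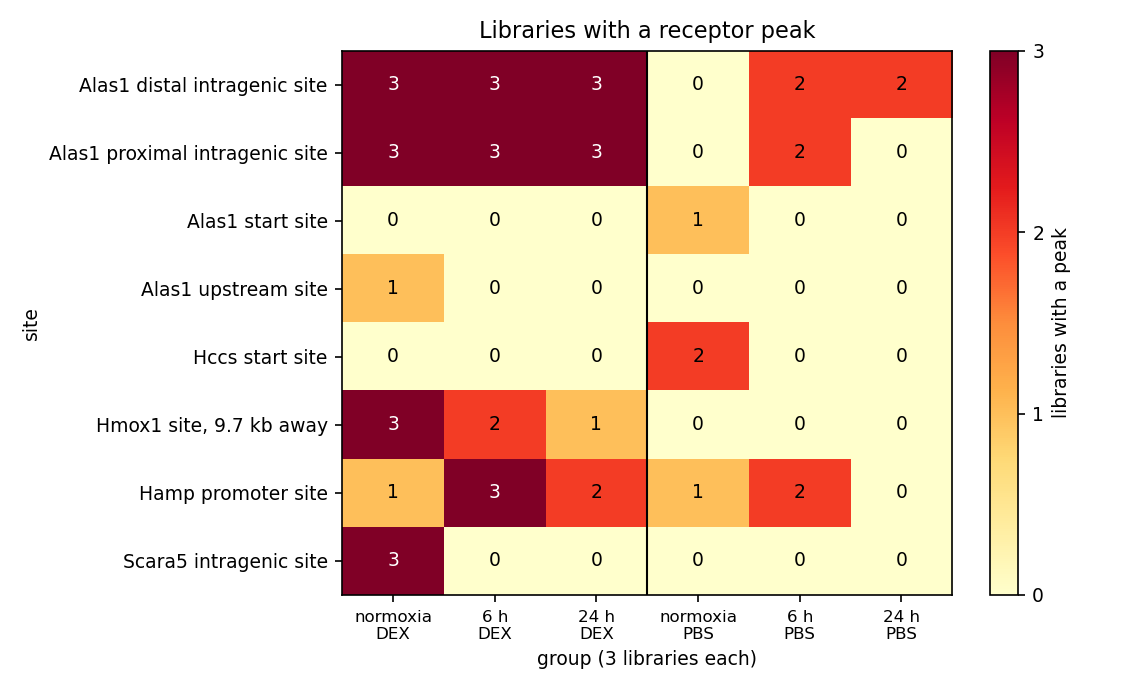
Number of libraries with a peak, of 3 in each group, at each member site, DEX groups left of PBS groups. Both intragenic Alas1 sites fill all DEX groups, the Scara5 site fills normoxia DEX alone, and the Hamp site is fullest at 6 h hypoxia with DEX.

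Of the 8 member sites, 5 had a peak in 3 or more of the 18 libraries and entered the comparison of detection between DEX and PBS over all sites. That comparison, an exact Cochran-Mantel-Haenszel test within oxygen conditions with Benjamini-Hochberg adjustment, called 55.3% of 2563 sites more often detected with DEX and 0.039% less often. Among the members it called the distal and proximal Alas1 sites and the Hmox1 site, and not the Hamp and Scara5 sites. Since the members were picked on these detections, nothing is read from that count. It was 1 with the replicate number as a block and 0 with each list held to the length of the shortest. Fisher's exact test of hypoxia against normoxia detection with DEX called 0 of 2938 sites after adjustment, 0% in either direction. Unadjusted, 260 sites had p under 0.05, 3 of them more often and 257 less often detected in hypoxia, and the block test also called 0. In the tag comparison of hypoxia with normoxia by limma, 3.1% of 935 sites were called higher and 2.03% lower, and neither Alas1 site was among them.

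**Figure D4:**
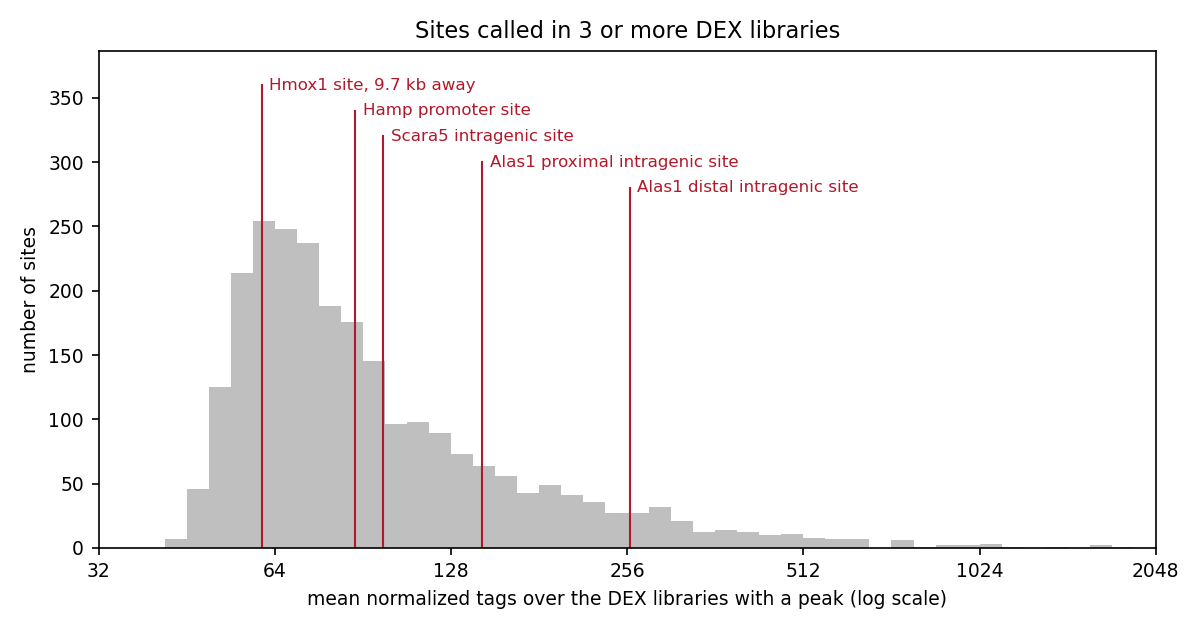
Mean normalized tags over the DEX libraries with a peak (horizontal axis, log scale) for all sites called in 3 or more DEX libraries (grey, number of sites), with the 5 member sites among them as red lines. Hmox1 at 60.8 lies near the mode of the distribution and the distal Alas1 site at 258.6 in its upper tail.

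A wider list of 94 other genes of heme and iron handling gave 69 sites at 45 genes, but 30 of these sites were found in normoxia PBS replicate 1 alone. Without them, 21 of 94 genes had a site, next to 10.6% of 21900 protein-coding genes. The list was chosen with earlier results of these data known, so no excess is read from these shares. Of 26 of the list's sites tested, 11 at 9 genes were called more often detected with DEX and 0 less often, 42.3% against the background of 55.3%. The median difference in the share of libraries with a peak was 0.444 on the list and 0.556 over all sites tested. The 11 calls were 7 at the common minimum, 8 with the replicate block and 0 at equal list length.

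In heme synthesis, 3 of 14 genes other than Alas1 had a site beyond normoxia PBS replicate 1, and 1 site was in enough libraries to be tested. That was at Clpx, which did not pass. Clpx, a protein-unfolding enzyme that activates ALAS proteins and takes part in their turnover, had peaks in 4 DEX libraries and 0 PBS libraries (adjusted p = 0.0764, exact test). Cpox, coproporphyrinogen oxidase, with peaks in 2 DEX libraries, and Slc25a39, a mitochondrial carrier, with a peak in 1, were not tested. Of the heme synthesis genes listed, Alas1 alone had a site with a peak in every DEX library. It was picked with its detection in view, so nothing is read from this. Of 2938 sites with a peak in 2 or more DEX libraries, 935 (31.8%) had a peak in every one. In heme breakdown, Ugt1a1, which conjugates bilirubin, had a peak in 3 DEX and 0 PBS libraries (adjusted p = 0.23, exact test).

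Carriers and sensors of heme held 5 called sites among 7 tested (71.4%), at 3 genes, next to 55.3% of all sites tested. Hp, the gene of the haemoglobin scavenger haptoglobin, had 4 sites, of which 3 were tested and 2 called. The one in most libraries, 6627 bp away, had a peak in 9 of 9 DEX and 0 of 9 PBS libraries, at 128 ± 38.4 normalized tags with DEX (SD, n = 9; adjusted p = 0.00307, exact test). Lrp1, the receptor for heme bound to hemopexin, had 4 sites, 3 of them tested and 2 called, and the one in most libraries had a peak in 8 DEX and 0 PBS libraries at 105 ± 29.0 (SD, n = 8; adjusted p = 0.00438, exact test). Bach1, a heme-binding repressor of Hmox1, had a peak in 6 DEX and 0 PBS libraries at 67.5 ± 12.8 (SD, n = 6; adjusted p = 0.0216, exact test). By group its counts with DEX were 3, 2 and 1 of 3 in normoxia, 6 h and 24 h of hypoxia, the same as those at Hmox1. Totals of 3 of 6 with hypoxia and 3 of 3 with normoxia were found at 180 of 2938 sites (6.13%). A link between Bach1 and Hmox1 was not tested. Flvcr2 had a peak in 2 DEX libraries.

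In the control of hepcidin, 3 of 10 tested sites (30%) were called, next to 55.3% of all sites tested. Atoh8, a transcription factor that raises hepcidin, had 3 tested sites, of which 1 was called, with a peak in 9 DEX libraries at 92.7 ± 18.1 (SD, n = 9) and in 2 PBS libraries at 37.8 ± 24.6 (SD, n = 2; adjusted p = 0.0112, exact test). Furin, the protease that cuts hepcidin's precursor, had a site in 9 DEX and 5 PBS libraries (139 ± 38.8 and 55.9 ± 24.4, SD; adjusted p = 0.131, exact test) and a second, 8690 bp from the gene, in 9 DEX and 0 PBS libraries (84.7 ± 18.8, SD; adjusted p = 0.00307, exact test). Smad6, an inhibitor of BMP signalling, had 5 sites, 4 of them tested and 1 called. The called one had a peak in 5 DEX libraries, 1, 3 and 1 of 3 in normoxia, 6 h and 24 h of hypoxia (67.8 ± 22.2, SD; adjusted p = 0.0452, exact test). The other 3 had peaks in 3 to 4 DEX libraries (adjusted p = 0.131 to 0.281, exact test). Tmprss6, a protease that lowers hepcidin, had a peak in 4 DEX libraries (adjusted p = 0.0764, exact test), and Bmp2 in 1.

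Uptake, storage and export held 2 called sites of 5 tested (40%), next to 55.3% of all sites tested. Slc39a14, a zinc and iron importer also called ZIP14, had a site in all 18 libraries, with 275.9 to 416.9 normalized tags with DEX and 43.5 to 294 with PBS. The DEX mean was 353 ± 51.3 and the PBS mean 113 ± 74.2 (SD over 9 libraries each), and only 6 h hypoxia PBS replicate 2 reached the DEX range. The log2 difference was 1.85 ± 0.31 (SE; limma, adjusted p = 7.0e-08), in a set in which 95.2% of 62 sites were called higher and the median was 1.63. Centring each library on its median took that shared change away and left 0.21 (limma, adjusted p = 0.0648). The change of that difference with hypoxia was -0.59 ± 0.67 (SE; limma, adjusted p = 0.613). A second Slc39a14 site was called in 9 DEX libraries and 1 PBS library (adjusted p = 0.00438, exact test).

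Lcn2, whose protein lipocalin 2 binds iron-carrying siderophores, had a peak in 9 DEX libraries at 293 ± 64.5 normalized tags (SD, n = 9) and in 1 PBS library at 123.9 (adjusted p = 0.00438, exact test). Fth1, the ferritin heavy chain gene, had a peak in 4 DEX libraries and 0 PBS libraries (adjusted p = 0.131, exact test). Steap4, a metalloreductase, had one in 3 DEX libraries and 1 PBS library, and Cp, the gene of the ferroxidase ceruloplasmin, in 1 DEX library. Of the iron-sulfur cluster genes, Lyrm4 had a peak in 1 DEX library, and none of the group was tested.

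Aco1 encodes the iron regulatory protein 1, which senses iron and binds mRNAs of iron genes. Of 4 Aco1 sites, 2 were tested and 1 called. The called one had a peak in 9 DEX libraries at 240 ± 70.1 normalized tags (SD, n = 9) and in 1 PBS library at 206.2 (adjusted p = 0.00438, exact test). The other was in 4 DEX libraries and 1 PBS library (adjusted p = 0.23, exact test). The called Aco1 site was the one site of 8 tested on the list whose tags differed between hypoxia and normoxia with DEX: means were 200.9 ± 12.0 in normoxia, 309.8 ± 81.6 at 6 h and 209.5 ± 43.1 at 24 h (SD, n = 3 each). The centred log2 difference was 0.47 ± 0.12 (SE; limma, adjusted p = 0.0321), against a median of 0.12 for the 8 sites. That call was lost without centring (0.32, adjusted p = 0.996) and on leaving out any of 7 of the 9 libraries, although the difference stayed at 0.43 to 0.49 on leaving out each of the 9 in turn. Its adjusted p ran between 0.0178 and 0.996 over 13 alternatives.

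**Figure D5:**
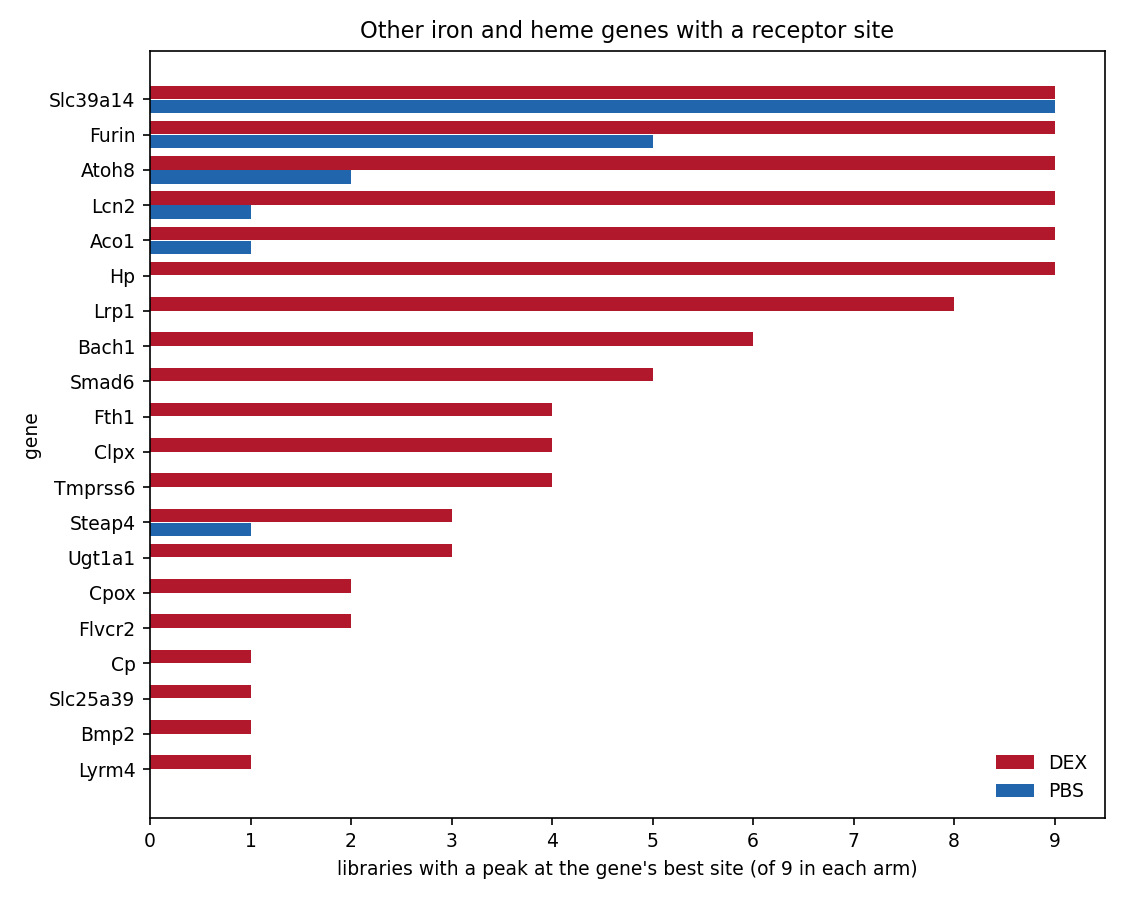
Number of DEX and PBS libraries with a peak, out of 9 each, at the best site of the other iron and heme genes, DEX bars above PBS bars. Slc39a14 is filled in both arms, and Hp, Lrp1 and Bach1 have DEX peaks alone.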

How the data were processed

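The authors trimmed reads with Trimmomatic, aligned them with BWA 0.7.17 to mm10 and handled them with SAMtools 1.10, per the submitters' processing notes. HOMER called peaks in each library alone against the input of its oxygen condition, with 50 tags and 4-fold enrichment over input and surroundings at a Poisson p of 1e-04, per the file headers. The deposited signal is the authors' normalized tag count per 10000000 tags. The deposited focus ratio is a fraction, the deposited score an unscaled tag-based value, and the deposited folds over input and surroundings are ratios the authors' caller gave per peak. Total and input tags were not used, since 2 lists scale them differently. No genome sequence was used here.

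Peaks overlapping by 1 bp were merged, and a site took its highest peak per library. Gene spans came from a RefSeq table of GRCm38.p6 (exons were not used here) and promoter sequences from RefSeq. Members and lists were chosen with earlier results of these data known. Named were all member sites, and of the other list genes the 20 with peaks in most libraries, then with the highest DEX tags.

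DEX and PBS detection were compared at sites in 3 or more of 18 libraries (exact Cochran-Mantel-Haenszel test), hypoxia and normoxia detection with DEX at sites in 2 or more of 9 (Fisher's exact test), and log2 tags with limma 3.58.1 at sites called in all libraries compared. All tests are two-sided; p-values were adjusted by the Benjamini-Hochberg method over every site tested, with a threshold of 0.05. Hypoxia fits centred each library on its median; DEX fits did not. Intervals are SDs or, for fits, SEs. Alternatives changed thresholds, overlap, distance, strata, filters, centring and libraries. The scripts (Python 3.11.15, R 4.3.3) were tested on simulated data.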

Additional observations from a re-analysis of the deposited data

How the results depend on the processing

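The 8 member sites were 5 at a common minimum of 86.6 normalized tags, 14 when any gene within 50 kb counted, and 7 to 8 on leaving out each library. Sites more often detected with DEX, 1418 as reported, numbered 757 at the common minimum, 28 at equal list length (78 peaks), 929 without the filter on libraries and 1309 to 1607 on leaving out each library. Hypoxia against normoxia detection with DEX gave 0 calls under every alternative run. Sites with changed tags in hypoxia with DEX, 48 as reported, numbered 11 without centring (2 higher, 9 lower), 31 at the common minimum in every library (443 sites tested) and 23 to 64 on leaving out each library, the lowest without normoxia DEX replicate 2. Sites with changed tags with DEX against PBS, 59 of 62, numbered 36 with centring (16 higher, 20 lower), 7 of 9 at the common minimum and 58 to 96 on leaving out each library, the highest without 24 h hypoxia PBS replicate 3, when 100 sites could be tested. The causes were not tested, apart from the smaller or larger number of sites these choices leave. Centring thus turned the balance of higher and lower calls in both tag comparisons. No called difference of a named site changed sign, but uncalled hypoxia differences with DEX did on leaving out each library: -0.25 to 0.17 at the distal and -0.50 to 0.17 at the proximal Alas1 site, -0.21 to 0.56 at the second Slc39a14 site and -0.14 to 0.22 at the first Furin site.

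The labels do not say that a replicate number marks a shared batch, and pairing was taken as shown only where the deviations of every same-numbered pair correlated above 0.1. This held for 7 of 9 DEX and PBS pairs and 5 of 6 hypoxia and normoxia pairs with DEX, so the numbers were not used to pair. As a hint from the data and not the design, 12 of 18 comparisons of a library with those of the other treatment, and 8 of 12 with those of the other oxygen condition, correlated best with its own number. With the replicate number as a block, 921 sites were more often detected with DEX and 74 had changed tags in hypoxia with DEX, and 1 in place of 3 member sites was called. Depth limits every absence of a peak, since the minimum was not scaled, and tags exist only above it, so means over libraries with a peak leave out the lower ones.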
